A study of Macaca mulatta with 15 samples.

Results

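CD4 memory T cells were followed from before to after 2-hydroxypropyl-beta-cyclodextrin treatment in 2 healthy rhesus macaques, the animals RhDBCb and RhM22. The 4 libraries described here were chosen by label alone, from 15 libraries of 4 T cell subsets. The Post group holds 1 library of CD4 memory cells from each animal after subcutaneous cyclodextrin (Kleptose HBP, a 15% w/w solution given at 1 ml/kg/day, for no longer than 120 days). The Pre group holds 1 library from each of the same animals with no treatment, so that each animal gives 1 pair. All cells came from peripheral blood, and no label states the age or sex of the animals, the day of a draw or how the subset was separated. No animal was sampled a second time without the drug, so treatment and the time between the draws cannot be told apart.

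Cyclodextrins are rings of sugar units with a hollow that holds a cholesterol molecule, and they can draw cholesterol out of cell membranes. Cells answer a loss of membrane cholesterol through SREBP transcription factors, which switch on cholesterol synthesis and uptake, and an excess through LXR receptors, which switch on export. Memory CD4 T cells are cells that have met antigen before. Their membrane cholesterol shapes the clusters in which the T cell receptor signals, and their state is read from the genes of receptor signalling, cytokine signalling, interferon response and homing.

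The labelled cell type was seen in the markers. CD4, the helper co-receptor, lay at 351 and 520 CPM (read counts scaled to the library's total) in the Post libraries of RhDBCb and RhM22 and at 267 and 549 CPM in the Pre libraries. CD8A lay between 1.56 and 3.60 CPM in all 4. S100A4, a gene of memory cells, lay at 312 to 502 CPM, against at most 25.8 CPM in CD4 naive cells. The 8 memory markers measured summed to 6725 to 7424 CPM, against at most 4257 CPM in CD4 naive cells. Of these markers PRDM1 (13.4 to 15.6 CPM) and IL2RB (317 to 1230 CPM) lay within the CD4 naive range (4.48 to 17.5 and 144 to 1241 CPM). CCR7, the lymph node homing receptor of naive and central memory cells, was at 6017 to 9553 CPM, within the 5977 to 17550 CPM of CD4 naive cells.

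Each library held 59411730 to 69889193 counts, with 10.9% to 13.3% of them in the top 10 genes. The Pre library of RhDBCb had the fewest genes detected, 13712 against 14410 to 15445 in the other 3. The CD4 naive and CD8 naive Pre libraries of that animal were also low, at 13525 and 13881, with 14750 in CD8 memory cells. The CD4 memory Pre libraries of the 2 animals differed by at least 2-fold in 2043 of the 8489 genes with a mean of at least 5 CPM over the 4 libraries. The Post libraries of the 2 animals differed by that much in 1351. Post and Pre of the same animal were closer, with 709 such genes in RhDBCb and 45 in RhM22. Without the Pre library of RhDBCb, RhM22 is the only animal with both times, so each result below gives both pairs. In RNA from whole populations, fewer cells of a type and less RNA per cell cannot be told apart. The kit does not mark strand, so reads of overlapping antisense genes are not separated either.

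The first question was how far the 2 animals moved alike. A pair change is the log2 CPM after treatment minus that before it in the same animal. Among the 8489 genes it had an SD across genes of 0.58 in RhDBCb and 0.28 in RhM22, and a median size of 0.33 and 0.16. A change of at least 1.5-fold was seen in 2233 genes of RhDBCb (1073 higher, 1160 lower) and 380 of RhM22 (215 higher, 165 lower). Across these genes the changes of the 2 pairs had a Pearson correlation of -0.05 and a Spearman correlation of -0.05. Genes are not independent replicates, and both axes rest on 2 libraries each. Both pairs were higher by any amount in 2075 genes (24.4%) and lower in 2036 (24%).

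A gene was taken to move alike when both pairs went the same way by at least 1.5-fold, at a mean of at least 5 CPM. By that measure 31 genes (0.365%) were higher and 23 (0.271%) lower in both pairs, and 85 (1%) moved by as much in opposite directions. Of the 85, 35 were higher in RhDBCb and lower in RhM22, and 50 the other way round. Whether 31 and 23 are more than 2 unrelated pairs with the same numbers of changed genes would share was not tested. The pair changes did not correlate positively across genes (Pearson -0.05), and the opposite genes outnumbered the alike ones. No shared response is therefore read from the counts of 31 and 23. At 2-fold no gene was higher in both, IFIT2 alone was lower in both, and 6 went opposite ways. Without a minimum CPM the 2-fold counts were 174 higher, 158 lower and 382 opposite of 14814 genes.

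**Figure D1:**
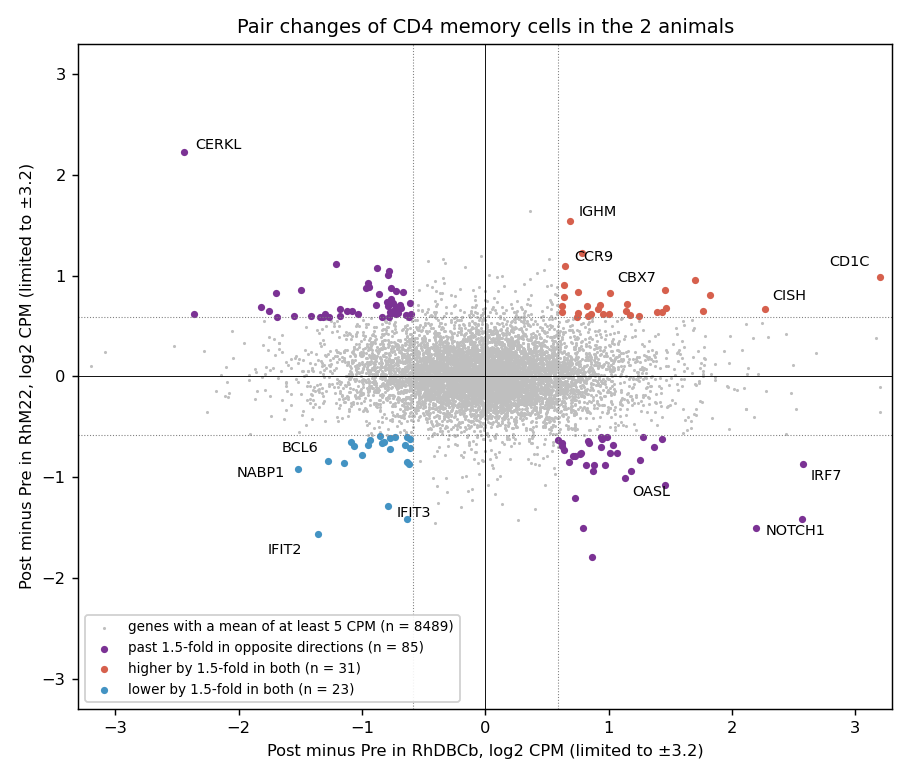
Each point is 1 of 8489 genes, placed by its Post minus Pre change in RhDBCb (x axis) and in RhM22 (y axis), both in log2 CPM. Dotted lines mark 1.5-fold. The cloud is wider along the RhDBCb axis (SD 0.58) than along the RhM22 axis (SD 0.28), the purple opposite genes (85) outnumber the red (31) and blue (23) ones together, and CD1C is drawn at the limit of the axis.

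None of these genes passed the test. edgeR's quasi-likelihood test of Post against Pre, with the animal as a block, called 0 of 14814 genes (0%) at an adjusted p under 0.05, and 230 had an unadjusted p under 0.05. DESeq2 also called 0, with 357 at an unadjusted p under 0.05. The names below are therefore a description of 2 pairs.

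Among the genes lower in both pairs IFIT2 had the largest smaller change, and 2 other interferon-induced IFIT genes were also there. IFIT2 (ENSMMUG00000061761), an RNA-binding protein of antiviral defence, lay at 40.6 CPM after treatment in RhDBCb and 45.4 CPM in RhM22, against 104 and 134 CPM before it. The Post values were close together and both lay below both Pre values. The pair changes were -1.36 and -1.56 (mean -1.46 ± 0.14, SD, n = 2 pairs), and edgeR gave a log2 fold change of -1.46 (SE 0.37, unadjusted p = 0.00196, adjusted p = 1). IFIT3 (ENSMMUG00000005001), its partner, lay at 31.9 and 49.2 CPM after treatment, against 55.2 and 120 CPM before it. Again both Post libraries were below both Pre libraries. IFIT1, a relative that binds foreign 5′ RNA ends in human cells, lay at 7.02 and 7.21 CPM, against 12.6 and 11.4 CPM before. The family shares sequence, so reads may be split between its members.

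Some of the other lower genes encode regulators of transcription or chromatin, picked here by role after their values were seen. BCL6 (ENSMMUG00000009198), the repressor that directs follicular helper cells, lay at 7.93 and 6.28 CPM after treatment, against 19.2 and 11.3 CPM before it. Its pair changes were -1.27 and -0.84 (edgeR log2 fold change -1.05, SE 0.34, unadjusted p = 0.0106, adjusted p = 1). TRPS1, a GATA-type repressor, lay at 10.3 and 17.8 CPM, against 23.0 and 32.4 CPM. The 2 groups did not overlap in either gene. ETV6, an ETS-family repressor, lay at 10.4 and 18.0 CPM after treatment, against 16.0 and 33.0 CPM before it, and here the groups overlapped because RhM22 was higher at both times. CCNT1, the cyclin that helps RNA polymerase elongate, had pair changes of -0.83 and -0.65, and the chromatin remodeller CHD7 of -0.63 and -0.61. H1-4, a linker histone gene whose mRNA largely lacks a poly(A) tail, had -0.63 and -1.42.

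NABP1 (ENSMMUG00000009460), a single-strand DNA binding protein of DNA repair, lay at 34.7 and 108 CPM after treatment, against 99.3 and 205 CPM before it. The Post library of RhM22 was above the Pre library of RhDBCb, so the groups overlapped although the Post library was the lower one in both animals (edgeR log2 fold change -1.23, SE 0.31, unadjusted p = 0.0021, adjusted p = 1). VAV3, a guanine nucleotide exchange factor of receptor signalling, had pair changes of -1.07 and -0.69, and ARAP2, which switches off Arf GTPases, of -0.95 and -0.68. PIK3C2A, a class II phosphoinositide kinase, had -1.09 and -0.65. RCAN1, an inhibitor of calcineurin, had -0.65 and -0.68. JMY had the closest pair of the lower genes, -0.61 and -0.62.

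The genes higher in both pairs are ordered here by role, without a count or test for any role. CISH (ENSMMUG00000059288), a feedback inhibitor induced by STAT5, lay at 66.2 and 246 CPM after treatment, against 13.7 and 155 CPM before it. RhDBCb moved far more than RhM22, with pair changes of 2.27 and 0.67 (mean 1.47 ± 1.13, SD, n = 2 pairs), and the Post level of RhDBCb stayed below the Pre level of RhM22. IKBKB (ENSMMUG00000008351), a catalytic subunit of the kinase that frees NF-kB, lay at 34.1 and 33.1 CPM, against 17.0 and 21.5 CPM. The 2 groups of IKBKB values did not overlap (edgeR log2 fold change 0.81, SE 0.25, unadjusted p = 0.00667, adjusted p = 1). INPPL1, a phosphatase of signalling lipids, lay at 3.97 and 17.8 CPM, against 1.20 and 9.13 CPM. IRF4 (ENSMMUG00000018513), a transcription factor of activated and effector T cells, lay at 46.2 and 110 CPM, against 29.6 and 58.5 CPM.

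CBX7 (ENSMMUG00000007845), a Polycomb protein that binds methylated histone H3, lay at 34.1 and 48.2 CPM after treatment, against 16.9 and 27.1 CPM before it. CBX1, a heterochromatin protein, lay at 12.2 and 17.4 CPM, against 5.53 and 11.0 CPM. Both genes had Post levels above both Pre levels. CBX7 had pair changes of 1.01 and 0.83 (edgeR log2 fold change 0.92, SE 0.34, unadjusted p = 0.0184, adjusted p = 1).

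CCR9 (ENSMMUG00000023588), the chemokine receptor that draws T cells to the small intestine, lay at 44.4 and 61.3 CPM after treatment, against 28.4 and 28.6 CPM before it. The 2 Pre values were nearly equal and both Post values lay above them. CYSLTR2, a leukotriene receptor, had pair changes of 1.82 and 0.81. GCNT1, which builds the branched sugars that selectins bind, had 0.78 and 1.22. ACTN4, an actin crosslinker, had 1.15 and 0.72.

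**Figure D2:**
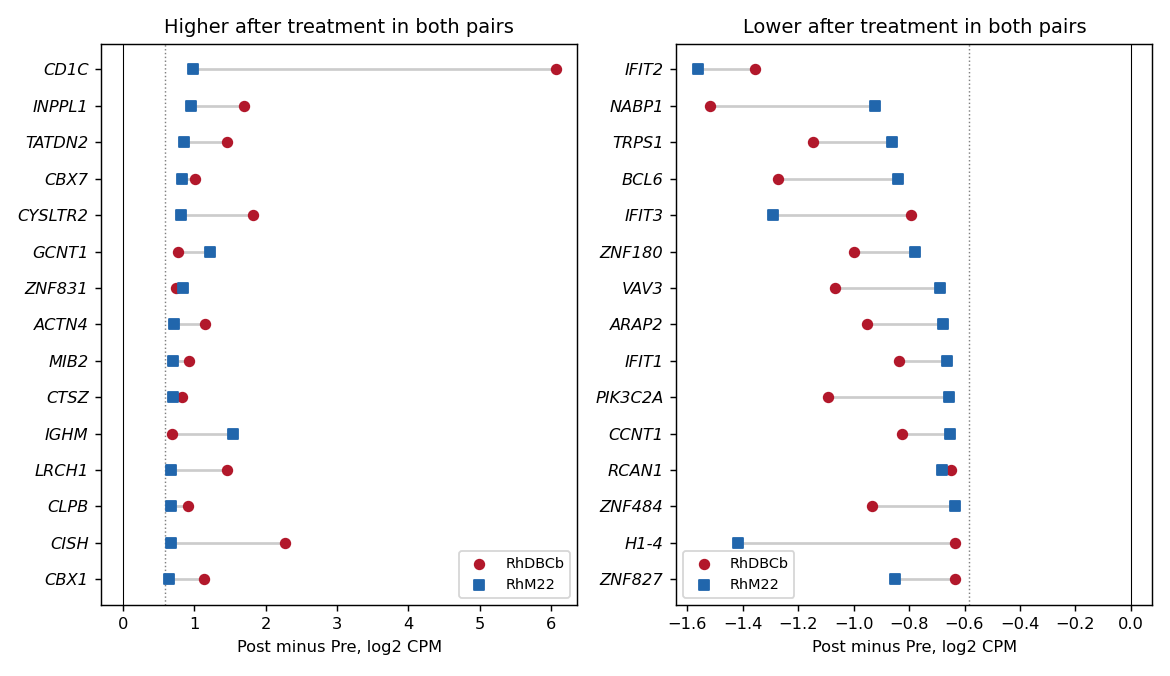
Post minus Pre in log2 CPM for the 15 named genes per direction with the largest smaller change of the pair, RhDBCb as red circles and RhM22 as blue squares. Dotted lines mark 1.5-fold. CBX7, CTSZ, ZNF831 and RCAN1 have nearly the same change in both animals, while CISH and CD1C are far apart.

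MIB2, a ubiquitin ligase, lay at 22.9 and 21.3 CPM after treatment, against 12.0 and 13.0 CPM before it (edgeR log2 fold change 0.82, SE 0.25, unadjusted p = 0.00735, adjusted p = 1). NIPAL3, a membrane protein of the magnesium transporter family, lay at 82.8 and 73.5 CPM, against 46.4 and 48.7 CPM (edgeR log2 fold change 0.71, SE 0.22, unadjusted p = 0.00792, adjusted p = 1). In both genes the animals were close at each time and the groups were apart. CLPB, a mitochondrial disaggregase, had pair changes of 0.91 and 0.67. CENPF, a kinetochore protein, had 0.62 and 0.70, and PORCN, which attaches the lipid of Wnt proteins, 0.64 and 0.79. MTURN had the closest pair of the higher genes, 0.62 and 0.64.

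**Figure D3:**
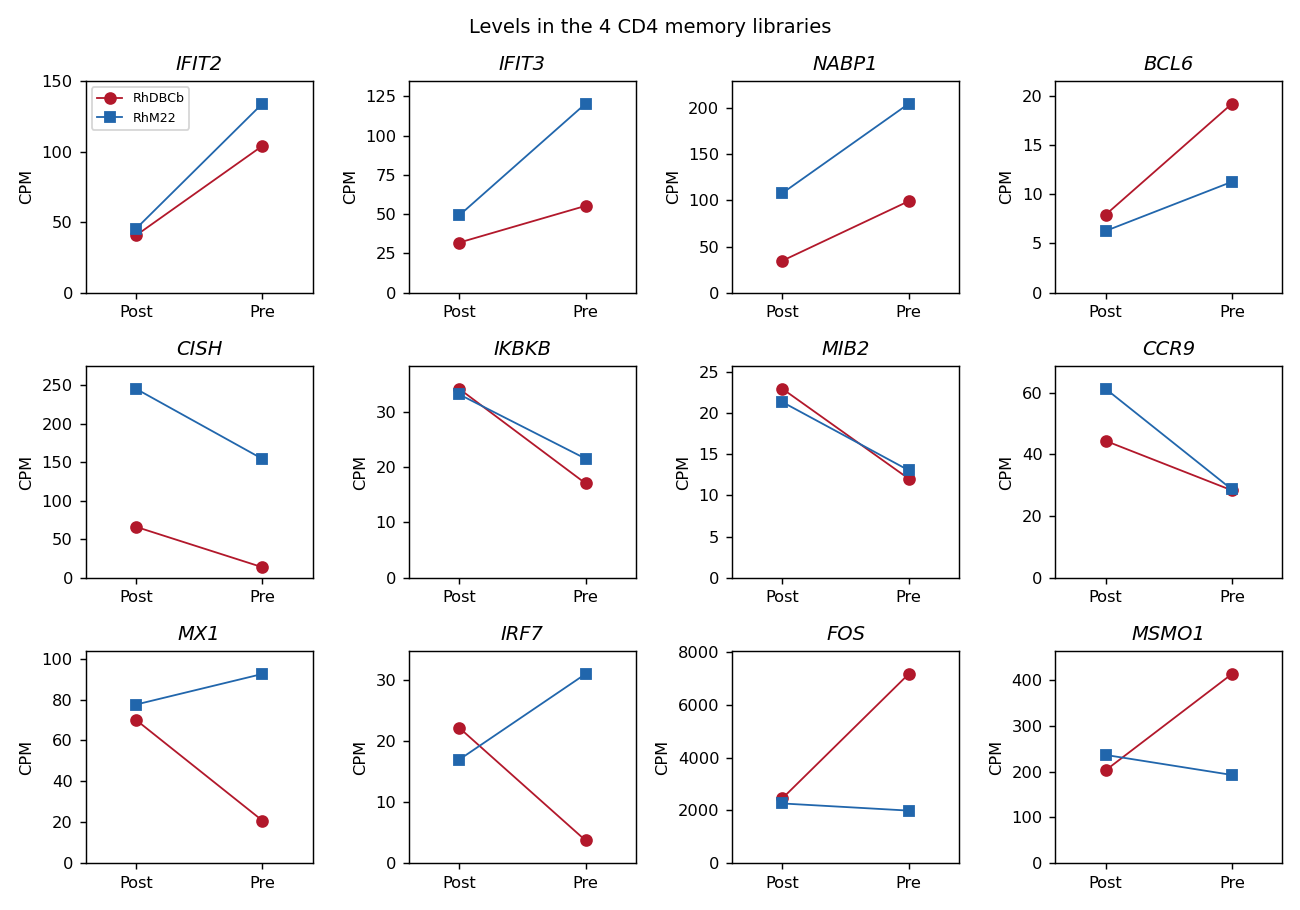
CPM of 12 genes in the 4 CD4 memory libraries, Post left and Pre right, with 1 line per animal (RhDBCb red, RhM22 blue). IFIT2, IFIT3, NABP1 and BCL6 are lower and CISH, IKBKB, MIB2 and CCR9 higher after treatment in both animals. MX1, IRF7, FOS and MSMO1 go opposite ways in the 2 animals.

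Some of the higher genes are known mainly from other blood cells. CD1C, a lipid-presenting molecule of dendritic and B cells, lay at 2.11 and 18.6 CPM after treatment, against 0 and 9.37 CPM before it. No fold is given for RhDBCb, whose Pre library was at 0. In CD4 naive cells CD1C lay at 0.27 CPM in RhDBCb and 45.4 CPM in RhM22 after treatment, against 0 and 32.2 CPM before it. IGHM, the heavy chain of IgM, lay at 11.0 and 8.49 CPM, against 6.86 and 2.90 CPM, and CTSZ, a lysosomal protease rich in myeloid cells, at 7.29 and 8.36 CPM, against 4.11 and 5.14 CPM. The summed level of the 15 monocyte and dendritic cell markers was 47.6 and 50.9 CPM after treatment, against 12.2 and 39.6 CPM before it. FLT3 was at 0 in all 4 libraries. The summed level of 10 B cell markers was 86.8 and 133 CPM, against 82.7 and 110 CPM, mostly from CR2 at 59.9 to 111 CPM. TNFRSF13C was at 0. The platelet markers summed to 26.5 and 38.1 CPM, against 7.95 and 45.1 CPM. The part of such cells in the higher genes was not tested.

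Of the 31 higher genes, 17 had both Post libraries above both Pre libraries, and of the 23 lower genes, 14 had both below. All genes at this level had groups apart in 1304 cases (15.4%), and nothing is read from the comparison because the same values chose the genes. The change was the larger one in RhDBCb for 23 of the higher and 15 of the lower genes. Changes were wider in RhDBCb across all 8489 genes too (SD 0.58 against 0.28), so this is no trait of the genes that moved alike. The weakest members with a symbol were WDTC1 (0.74 and 0.59) and NIPAL3 (0.84 and 0.60) among the higher genes, and ZNF429 (-0.86 and -0.59) and KIF11 (-0.73 and -0.60) among the lower. Just outside lay PIEZO1 (0.58 and 0.71), TRAPPC11 (0.58 and 0.88), ZNF93 (-0.80 and -0.58) and SAMD8 (-0.92 and -0.58). The genes without a symbol were 1 of the higher and 2 of the lower.

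Pathways were followed through gene lists, each described by the members with at least 5 CPM and set beside the median change of all 8489 genes, -0.0039 in RhDBCb and 0.0067 in RhM22. Of all 8489 genes 24.4% were higher and 24% lower in both pairs, and 15.4% had the groups apart. No member of a list was called in the test of Post against Pre, in either direction.

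The interferon list did not move as a block. Of its 43 members 7 were higher in both pairs, 10 lower in both and 26 went opposite ways. The median was 0.41 in RhDBCb and -0.27 in RhM22. Beside IFIT1, IFIT2 and IFIT3, the lower members included IFIT5, at 16.1 and 20.4 CPM after treatment against 34.7 and 25.6 CPM before it. CMPK2, a nucleotide kinase of the antiviral response, lay at 10.5 and 10.2 CPM, against 16.6 and 14.8 CPM. MX1, an antiviral GTPase, lay at 70.1 and 77.6 CPM after treatment, against 20.8 and 92.6 CPM before it. The low value was the Pre library of RhDBCb alone, and the other 3 lay close together. IRF7, the factor that amplifies interferon production, lay at 22.2 and 17.0 CPM, against 3.70 and 31.1 CPM. The Pre levels of IRF7 were the extremes and the Post levels lay between them.

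The cytokine feedback list was the one list of 10 or more members in which no member went opposite ways. Of 10 members 6 were higher and 4 lower in both pairs, with medians of 0.30 and 0.24. SOCS2, a feedback inhibitor of STAT5 signals, lay at 172 and 320 CPM after treatment, against 123 and 223 CPM before it. SOCS3, which restrains STAT3, lay at 57.2 and 138 CPM, against 32.2 and 120 CPM. SOCS1 had pair changes of 0.39 and 0.29, and the survival gene BCL2L1 of 0.54 and 0.39. The lower members were BCL6, SOCS5, PIM3 and IKZF4, the last by -0.08 and -0.01. The list's direction comes from few genes, and only CISH and BCL6 reached 1.5-fold in both pairs.

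Of 34 genes of T cell receptor signalling 15 were higher and 2 lower in both pairs and 17 went opposite ways, and the medians were 0.16 and 0.09. DGKZ, a kinase that removes the second messenger diacylglycerol, lay at 202 and 216 CPM after treatment, against 123 and 163 CPM before it. PTPN6, a phosphatase that damps receptor signals, lay at 105 and 74.8 CPM, against 70.1 and 55.7 CPM. CSK, the kinase that holds LCK inactive, had pair changes of 0.64 and 0.33. The groups did not overlap in these 3 genes. That held for 5 of the 34 members, beside 15.4% of all 8489 genes, so it is no trait of the list. MALT1, a protease of the pathway to NF-kB, was lower in both animals, at 37.4 and 62.4 CPM after treatment against 42.6 and 125 CPM before it.

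TNF and NF-kB signalling genes were more often lower than higher in both pairs. Of 24 members 3 were higher and 11 lower, with medians of -0.14 and -0.13. TNFAIP3, the enzyme that ends NF-kB signalling, lay at 521 and 934 CPM after treatment, against 1967 and 958 CPM before it. BIRC3, an inhibitor of cell death induced by NF-kB, lay at 118 and 190 CPM, against 397 and 218 CPM. The pair changes were large in RhDBCb (-1.92 and -1.74) and near 0 in RhM22 (-0.04 and -0.20). NFKBIE, an inhibitor of NF-kB, was lower in both by more even amounts, -0.84 and -0.45. RELB and BCL3 went opposite ways, 0.71 and 0.77 in RhDBCb, -0.79 and -0.77 in RhM22.

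Of 30 immediate early genes 5 were higher and 6 lower in both pairs, and the medians were -0.32 in RhDBCb and 0.13 in RhM22. FOS, a subunit of AP-1, lay at 2456 and 2258 CPM after treatment, against 7177 and 1987 CPM before it. JUN, its partner, lay at 162 and 103 CPM, against 507 and 87.0 CPM. DUSP1, a phosphatase of stress kinases, lay at 1405 and 1460 CPM, against 5813 and 1286 CPM. The high value was the Pre library of RhDBCb in each. Of 13 genes of the glucocorticoid response 0 were higher and 6 lower in both pairs and 7 went opposite ways, with medians of -0.33 and -0.07. TSC22D3, induced by glucocorticoids, lay at 5209 and 4177 CPM, against 17978 and 4112 CPM, again with the high value in the Pre library of RhDBCb. BTG1, an antiproliferative gene of resting cells, was lower in both animals, at 2054 and 2524 CPM, against 3248 and 3234 CPM (edgeR log2 fold change -0.51, SE 0.19, adjusted p = 1). RGS1, which shortens chemokine receptor signals, lay at 154 and 205 CPM after treatment, against 579 and 305 CPM before it (edgeR log2 fold change -1.25, adjusted p = 1, and -0.80 without the Pre library of RhDBCb).

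**Figure D4:**
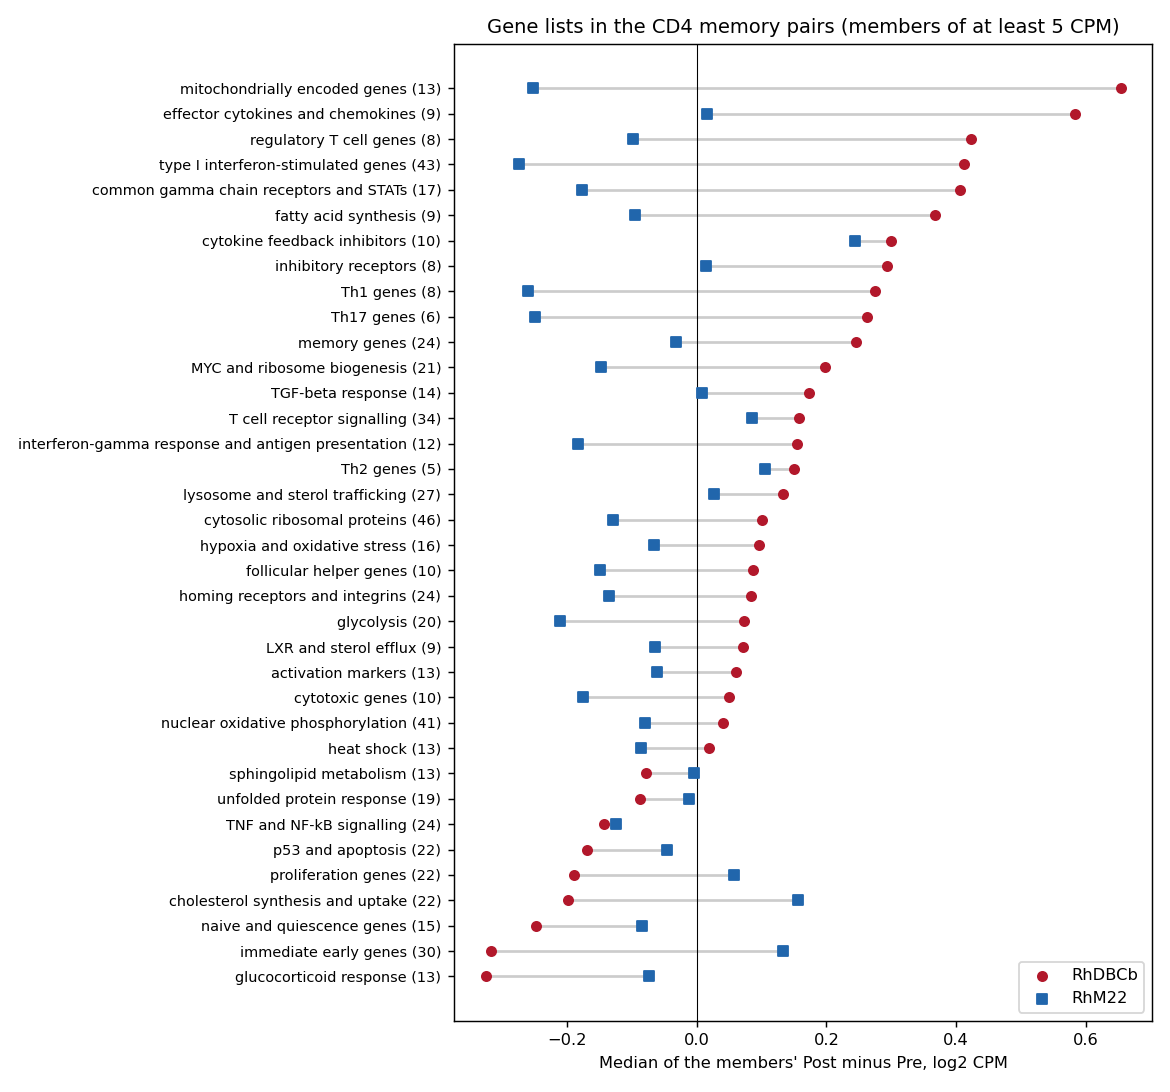
Median Post minus Pre change, in log2 CPM, of the members with at least 5 CPM of each pathway list with 5 or more such members (number in brackets), RhDBCb as red circles and RhM22 as blue squares. Most lists have medians on opposite sides of 0, the mitochondrially encoded genes most widely (0.65 and -0.25). The cytokine feedback inhibitors have both medians above 0.2.

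Sterol genes moved in mixed directions, as did all 8489 genes, of which 48.4% had the same sign in both pairs. Of 22 genes of cholesterol synthesis and uptake 6 were higher and 3 lower in both pairs and 13 went opposite ways, with medians of -0.20 in RhDBCb and 0.16 in RhM22. MSMO1, a late enzyme of the pathway, lay at 203 and 237 CPM after treatment, against 414 and 193 CPM before it. INSIG1, which holds SREBP back when sterols are plentiful, lay at 294 and 299 CPM, against 439 and 279 CPM. In both genes the high value was the Pre library of RhDBCb. SREBF2, which encodes the SREBP of cholesterol synthesis, and SCAP, its escort, were the steadier members, with pair changes of 0.43 and 0.34 and of 0.25 and 0.21. SREBF1, the SREBP of fatty acid synthesis, had 1.66 in RhDBCb and -0.51 in RhM22. IDI1, an isomerase of the pathway, was lower in both, at 53.9 and 56.3 CPM after treatment against 105 and 58.4 CPM before it.

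Of the 9 members of the LXR list 3 were higher and 3 lower in both pairs. ABCG1, a cholesterol exporter, lay at 59.2 and 72.3 CPM after treatment, against 77.8 and 99.6 CPM before it, with pair changes of -0.39 and -0.46 and no overlap of the groups. MYLIP, a ubiquitin ligase induced by sterols, had -0.44 and -0.22. ABCA1 lay at no more than 4.74 CPM in all 4 libraries. Of 27 genes of the lysosome and of sterol trafficking 9 were higher and 2 lower in both, with medians of 0.13 and 0.03. NPC1, which moves cholesterol out of the lysosome, had pair changes of 0.08 and 0.43, and its partner NPC2 0.26 and 0.36. PSAP, a precursor of lysosomal activators, lay at 497 and 466 CPM, against 398 and 421 CPM, with the groups apart.

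Stress and homing genes were described in the same way. Of 19 genes of the unfolded protein response 1 was higher and 7 lower in both pairs, with medians of -0.09 and -0.01. HSPA5, the chaperone of the endoplasmic reticulum, lay at 3579 and 3435 CPM after treatment, against 5224 and 3859 CPM before it. Of 22 genes of p53 and apoptosis 6 were higher and 9 lower in both. CDKN1A, a cell cycle inhibitor induced by p53, lay at 366 and 363 CPM, against 542 and 466 CPM, and MDM2, which degrades p53, at 16.6 and 33.1 CPM, against 41.2 and 39.3 CPM. Both genes had Post levels below both Pre levels. Of 24 homing receptors and integrins 7 were higher and 8 lower in both. S1PR1, the receptor that lets T cells leave lymph nodes, lay at 1282 and 1441 CPM, against 1590 and 1683 CPM, with the groups apart.

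The mitochondrially encoded genes showed the widest split. All 13 were higher after treatment in RhDBCb and 12 of 13 lower in RhM22, with medians of 0.65 and -0.25. CYTB, a subunit of complex III, lay at 739 and 1570 CPM after treatment, against 429 and 1802 CPM before it. The 2 animals were further apart than either pair. Of 46 cytosolic ribosomal protein genes 38 went opposite ways, with medians of 0.10 and -0.13.

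Helper lineage genes gave no common direction. GATA3, of Th2 cells, had pair changes of 0.15 and 0.11, and TBX21, of Th1 cells, 0.02 and -0.21. FOXP3, of regulatory cells, lay at 20.3 and 30.1 CPM after treatment, against 8.29 and 34.4 CPM before it. Apart from BCL6, the follicular helper genes CXCR5, ICOS and PDCD1 had pair changes of no more than 0.51 in size. PDCD1, the checkpoint receptor PD-1, lay at 68.0 and 54.4 CPM, against 47.6 and 53.5 CPM. MKI67, the proliferation marker, had -0.36 and 0.06. The activation marker CD69 lay at 147 and 277 CPM, against 451 and 297 CPM, and IL2RA, the high-affinity chain of the IL-2 receptor, at 53.2 and 91.7 CPM, against 36.6 and 153 CPM.

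Whether the animals differed was tested as RhM22 minus RhDBCb in the same model with a mean for each CD4 memory library. It called 0 genes (0%), with 352 at an unadjusted p under 0.05. Tested alone, the pair of RhDBCb gave 0 calls (0%, 777 at an unadjusted p under 0.05, smallest adjusted p = 0.624) and that of RhM22 0 (0%, 33). DESeq2 called 17 in the pair of RhDBCb, 0 in that of RhM22 and 1 in the difference. Each of these sets single libraries against each other, so the spread in the test comes from the other subsets and none of it from CD4 memory cells. With a symbol and a mean of at least 5 CPM, the 5 genes with the smallest p for the difference were HEATR5B, SPATA5, PPBP, MTM1 and ERCC2. HEATR5B, an endosomal trafficking protein, lay at 3.40 and 16.6 CPM after treatment, against 17.6 and 10.8 CPM before it. PPBP, a platelet chemokine, lay at 13.9 and 19.3 CPM, against 1.13 and 24.6 CPM. Among the genes with opposite changes, NOTCH1, a receptor of T cell fate, had 2.20 in RhDBCb and -1.50 in RhM22, and CERKL, a ceramide kinase-like gene, had -2.44 and 2.22. CERKL was the only gene past 4-fold in opposite directions at a mean of at least 5 CPM.

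Last, the genes that moved alike were followed into the other subsets, which the choice did not use. Those libraries came from the same 2 animals and the same labelled times, so they are not independent draws. Of the 31 higher genes, 20 (64.5%) were higher in both CD4 naive pairs, against 24.4% of all 8489 genes, and 18 (58.1%) in both CD8 memory pairs, against 16.8%. Of the 23 lower genes, 15 (65.2%) were lower in both CD4 naive pairs, against 25.1%, and 9 (39.1%) in both CD8 memory pairs, against 18.2%. In all 5 other pairs 12 of the higher and 5 of the lower genes kept their direction, against 4.22% and 4.19% of all genes. IFIT2 and BCL6 were lower and CBX7, MIB2 and NIPAL3 higher in all 7 pairs. IFIT3 and NABP1 were lower in all but the CD8 memory pair of RhDBCb, where they had 0.27 and 0.11.

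**Figure D5:**
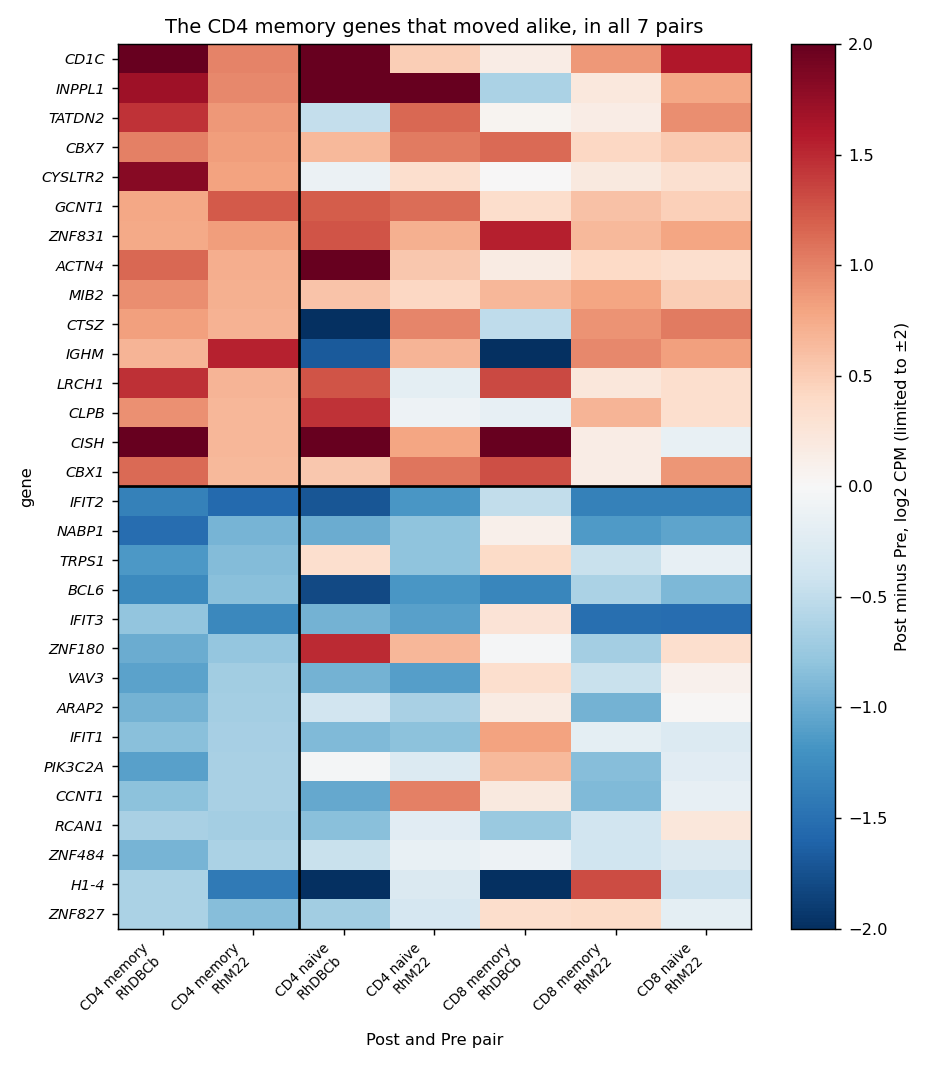
Post minus Pre in log2 CPM, limited to ±2, for the 30 named genes that moved alike in CD4 memory cells (rows), in the 7 pairs of the series (columns). The 2 columns left of the line chose the genes. IFIT2 and BCL6 are blue and CBX7 and MIB2 red in every column. The CD8 memory column of RhDBCb holds more lower genes with the other sign than any other column.

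The CD4 memory effect was tested against that of the other subsets. The difference from CD4 naive cells called 0 genes (0%, 195 at an unadjusted p under 0.05) and that from CD8 memory cells 0 (0%, 137). For IFIT2 the CD4 memory minus CD4 naive difference was 0.03 and for BCL6 0.48 on the log2 scale. DESeq2 called 1 gene against CD4 naive and 0 against CD8 memory cells. At a mean of at least 5 CPM the smallest p against CD4 naive cells was that of SRGAP2, a membrane-shaping GTPase activator, which lay at 5.44 and 22.9 CPM after treatment, against 18.5 and 14.6 CPM before it (difference -2.82, unadjusted p = 0.0061, adjusted p = 1). Its 2 CD4 memory pairs went opposite ways. UHRF1BP1, a lipid transfer protein, was lower in both, at 4.56 and 11.0 CPM, against 15.3 and 14.5 CPM.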

How the data were processed

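RNA was measured with SMART-Seq v4 libraries of polyadenylated RNA from 15 T cell samples of 2 rhesus macaques, 4 of them CD4 memory. The authors deposited expected counts per gene, estimated by RSEM, as unscaled values, and separately FPKM values, deposited per gene length and library, whose scale factor is not given in the sources used here. The submitters' processing notes list RSEM 1.3.3, STAR 2.7.6a and cutadapt 1.18 among the tools, with rheMac10 and Mmul_10 as builds. Counts cover 34884 genes and FPKM 28331. Symbols came from the files for 23407 genes and from a name table for 933.

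Counts were rounded to whole numbers. edgeR 4.0.16 (R 4.3.3) kept 14814 genes by filterByExpr with a minimum count of 10, scaled them by TMM and fitted 8 subset-by-time groups plus animal to all 15 libraries, because a group holds only 1 or 2. Adjusted p is Benjamini-Hochberg over all genes, and SE is the absolute log2 fold change over the square root of F. Single pairs and their difference came from a model that gives each CD4 memory library its own mean. Pair changes used log2 CPM with a prior count of 2. SE and p cover the spread between all 15 libraries, most of them of other subsets of the same 2 animals, treated as independent beyond the animal term. The 4 CD4 memory libraries alone leave 1 residual degree of freedom. PCR copies cannot be told from molecules. Pairs share an animal by label, and deviations from the group means correlated at 0.445 between the Post and Pre CD4 memory libraries of an animal.

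The members and lists were chosen with earlier results of these data known. The 2-fold rule named IFIT2 alone, so the 15 genes per direction at 1.5-fold, other list members and genes with opposite changes were named after their values were seen. A fixed panel and the 5 genes of smallest p per comparison were also named, some not reported here. The alternatives were other scaling, no filter, DESeq2 1.42.0, no animal block, fewer libraries, other fold limits, a prior count of 0.5 and log2(FPKM + 1). No sequence and no coordinates were used here.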

Additional observations from a re-analysis of the deposited data

Results flagged for a closer look

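Among the genes that moved alike in CD4 memory cells, 3 moved the other way in both pairs of another subset. ZNF180, a zinc finger gene, was lower after treatment in both CD4 memory pairs and higher in both CD4 naive pairs (1.49 in RhDBCb and 0.66 in RhM22). The CD4 memory minus CD4 naive difference was -1.85 (SE 0.70, edgeR unadjusted p = 0.0222, adjusted p = 1). ZNF827, another zinc finger gene, was lower in both CD4 memory pairs and higher in both CD8 memory pairs (0.36 and 0.38), with a CD4 memory minus CD8 memory difference of -1.10 (SE 0.47, adjusted p = 1). PORCN was higher in both CD4 memory pairs and lower in both CD8 memory pairs (-0.23 and -0.33), with a difference of 1.00 (SE 0.42, adjusted p = 1). None of these differences passed the test, and the genes were picked from 54 by their signs.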

How the results depend on the processing

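With 2 pairs, the test of Post against Pre called 0 genes in edgeR under every alternative run, including DESeq2's size factors, no filter, the 4 CD4 memory libraries alone, the 8 CD4 libraries and a mean for each library, and 0 in DESeq2. Leaving out 1 CD4 memory library gave 0 in all 4 fits, while genes at an unadjusted p under 0.05 numbered 751 without the Pre and 594 without the Post library of RhM22, and 56 without the Pre and 75 without the Post library of RhDBCb. Without the animal block, which drops the pairing, the counts were 0 in all 6 comparisons, with 93 genes at an unadjusted p under 0.05 in place of 230. The pairing changed no call. DESeq2 called 17 genes in the pair of RhDBCb, 1 in the difference of the pairs (SMTN) and 1 against CD4 naive cells (ENSMMUG00000015202, without a symbol). The cause was not tested.

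The count of genes alike at 2-fold was 332 without a CPM minimum. It was 526 with a prior count of 0.5, 871 at 1.5-fold, 53 at 4-fold, 1 with a mean of at least 5 CPM and 1 on log2(FPKM + 1), IFIT2 in both. The pseudocount of 1 shrinks low genes by construction. At 1.5-fold and 5 CPM that scale left 2 genes higher (GCNT1 and CISH), 5 lower and 7 opposite, in place of 31, 23 and 85. At 2-fold there were 0, 1 and 6, and with no CPM minimum 470, 401 and 863, settings chosen after seeing the data. DESeq2's size factors gave 36, 23 and 88. For the 20 genes followed, all 220 log2 fold changes kept their sign, but those of 6 genes moved by over 1.5 times without 1 library. CISH was 0.71 and ARAP2 -0.47 without the Post library of RhDBCb, CENPF 0.38 without the Post library of RhM22, and CBX1 0.57, IFIT1 -0.45 and RGS1 -0.80 without the Pre library of RhDBCb, against 1.59, -0.79, 0.67, 0.87, -0.76 and -1.25 with all libraries. IFIT2 ranged from -1.52 to -1.38, with an adjusted p of 0.544 in DESeq2 and 0.939 to 1 in edgeR. A fit without 1 library kept the unpaired library of the same animal, so its value is not the change of the other pair. IFIT1, at -0.45 in the fit without the Pre library of RhDBCb, had a pair change of -0.66 in RhM22. The difference of the pairs could not be fitted with a CD4 memory library left out.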
